A study of Mus musculus with 10 samples.

Results

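Genes that the transcription factor p53 activates were followed, 10 in all, in mouse embryonic stem cells (ESC) with and without intact DIDO3: Cdkn1a, Mdm2, Ccng1, Bax, Trp53inp1, Phlda3, Sesn2, Zmat3, Aen and Bbc3. The rule that lists the members uses gene names and no measured value, although it was written with earlier results of these data known, and the genes were located through the mm10 coordinates of the deposited features. The 10 genes comprised 20 features at 12 distinct sites, of 43031 features at 28730 sites and 19373 named genes in all. A feature is a UCSC 3′UTR extended by 2000 bases downstream, and features with identical coordinates were summed as 1 site. For a gene with several sites, the lead site is the one with the highest mean over the libraries.

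The series holds RNA-seq of C57BL/6 ESC in 3 groups, with 3 libraries each. WT carried the wild-type genotype. DIDO3ΔE16 ESC were homozygous for Cre-mediated loss of floxed exon 16, the exon specific to the DIDO3 isoform, in a cross with a Sox2-Cre line. DIDO3ΔCT+HADIDO3 ESC carried a constitutive deletion of the DIDO3 C terminus and expressed HA-tagged DIDO3 in addition. No library of DIDO3ΔCT without HADIDO3 was analysed here, so the deletion and the added protein cannot be told apart. All cells were grown with LIF and serum, either on gelatin or on a feeder layer of mouse embryonic fibroblasts whose division had been blocked with mitomycin C. The labels do not say which support was used for which library, nor whether replicates came from separate clones or cultures, so p-values measure only the spread between these libraries, which may be technical.

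The labels name 4 WT samples, of which replicates 2 and 3 share a library identifier and were counted as 1 library (WT 2-3). The identifiers of WT 1 and WT 4 begin with C7A9 and those of the other 7 libraries with C79M. Coverage added up to 1.46 to 2.62 Gb per library, and 1 TPM (a length-normalized share of the library) corresponded to 0.434 to 0.775 reads over each base. The most distal Dido1 site checked the labels, at 13.7 to 17.9 TPM in WT, 0.307 to 0.546 TPM in DIDO3ΔE16 and 10.9 to 12.1 TPM in DIDO3ΔCT+HADIDO3. All 12 ESC markers were detected, with summed levels of 4477 to 5664 TPM in WT, 6783 to 7052 TPM in DIDO3ΔE16 and 4468 to 6457 TPM in DIDO3ΔCT+HADIDO3. These sums contain single low values, named here after they were seen: Esrrb was at 5.18 and 8.78 TPM in WT 1 and WT 4 and 9.70 TPM in DIDO3ΔCT+HADIDO3 replicate 2, Nanog at 3.10 TPM in WT 4 and Sall4 at 4.72 TPM in WT 2-3. The summed level of 12 fibroblast markers was 98.3 to 109 TPM in WT, 208 to 218 TPM in DIDO3ΔE16 and 101 to 107 TPM in DIDO3ΔCT+HADIDO3. The markers moved in both directions in DIDO3ΔCT+HADIDO3, with 2 called higher and 4 lower. The collagen gene Col1a2 fell there to 0.229 to 0.246 TPM, from 16.6 to 20.0 TPM in WT, and Col3a1 was listed at 0 in all 3 libraries. Thy1 rose to 52.2 to 56.1 TPM, from 18.1 to 19.7 TPM in WT, and Pdgfrb to 38.5 to 41.8 TPM, from 4.99 to 5.28 TPM, so these markers made up most of the sum in that line. In bulk RNA, fewer cells of a type and less RNA per cell cannot be told apart.

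p53 is held at a low level by the ubiquitin ligase Mdm2 and is stabilised when DNA is damaged or replication stalls. It then binds a response element made of adjacent decamers and raises genes that stop the cell cycle, repair DNA, alter metabolism or start cell death. Mdm2 is itself a p53 target, so the pathway limits its own activity. ESC express p53 at a high level while they cycle rapidly.

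The p53 decamer was searched in the promoter windows of RefSeq (GRCm38.p6, the same assembly as mm10; 250 bases before to 50 bases after each start site), in which 8 of the 10 genes had an entry. A decamer without mismatch was found in Cdkn1a, Mdm2, Ccng1, Bax and Aen, that is, in 6 of 12 member windows and in 8.36% of all 32851 promoter windows. A pair of adjacent decamers, with at most 1 mismatch in each, was found in 1 of the 12 member windows, that of Cdkn1a, and in 0.122% of all windows. The decamer pattern that was searched reads the same on both strands, although a single match need not. The lines that follow give the matches, the pair for Cdkn1a and a single decamer for the others, with the 4-base core in capitals.
Cdkn1a, chr17:29090928-29090947, plus strand, the pair of adjacent decamers: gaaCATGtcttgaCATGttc
Mdm2, chr10:117710930-117710949, minus strand, with flanks of 5 bases: gataggaaCTTGcctagcga
Ccng1, chr11:40755457-40755476, minus strand, with flanks of 5 bases: tgcccgggCAAGccttggca
Bax, chr7:45467085-45467104, minus strand, with flanks of 5 bases: atcccaggCAAGctttgaac
Aen, chr7:78895932-78895951, plus strand, with flanks of 5 bases: aagccgggCTTGtccgggca
A match is a description of the letters, not evidence of binding, and windows without one say nothing about p53 binding elsewhere in the gene.

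The values themselves come from the other end of each gene. Trp53inp1 is the only member with separate 3′ ends among the features. The last 30 bases of annotated transcripts (GENCODE M21, mm10) are shown for both ends of Trp53inp1 and for Cdkn1a, since the measured sites lie around these ends, with the poly(A) signal hexamer, where it lies in the stretch, in capitals.
Cdkn1a, chr17:29100693-29100722, plus strand: ctggtgctcAATAAAtacttctcgatgatt
Trp53inp1 distal end, chr4:11174350-11174379, plus strand: tgtcagtaAATAAAatgtcctttaacttaa
Trp53inp1 proximal end, chr4:11166371-11166400, plus strand: aggctaaatatatttcctctttcttgtacc
The proximal end of Trp53inp1 had no such hexamer in these letters. The added downstream bases made up 23% (Zmat3) to 92.3% (Bax) of the length of a member site, so TPM at a site averages the UTR and its downstream flank.

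Of the p53 targets, Sesn2 alone was called in any comparison, lower in DIDO3ΔCT+HADIDO3 than in WT and than in DIDO3ΔE16. A call required a log2 fold change of 0.7 or more in either direction with an adjusted p under 0.05 (limma on log2(TPM + 0.1), Benjamini-Hochberg over all sites tested). In DIDO3ΔE16 compared with WT, 0 of 10 members were called, against 15.1% of the 21063 sites tested. At an unadjusted p under 0.05 there were 4 of 10 members, against 43.4% of all sites. In DIDO3ΔCT+HADIDO3 compared with WT, 1 of 10 was called, Sesn2, against 17.3% of 20879 sites (7.24% called lower), and 6 of 10 had an unadjusted p under 0.05, against 47.3%. In DIDO3ΔE16 compared directly with DIDO3ΔCT+HADIDO3, 1 of 10 was called, again Sesn2, against 27.4% of 21172 sites (13.9% called higher and 13.4% called lower), and 6 of 10 had an unadjusted p under 0.05, against 55.2%. The members' median log2 fold change relative to WT was 0.12 in DIDO3ΔE16, and in DIDO3ΔCT+HADIDO3 it was -0.18, where the medians of all sites tested were -0.01 and -0.01. In the direct comparison it was 0.25, with a median of 0.01 over all sites. Both comparisons with WT use the same WT libraries. Without scaling of the libraries, values relative to WT shifted by 0.0637 on the log2 scale in DIDO3ΔE16 and by 0.10 in DIDO3ΔCT+HADIDO3, and the folds given here are relative to that shift. With 3 libraries against 3, an exact permutation test of a single gene cannot give a p below 0.1, so tests rest on the fit across all sites.

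**Figure D1:**
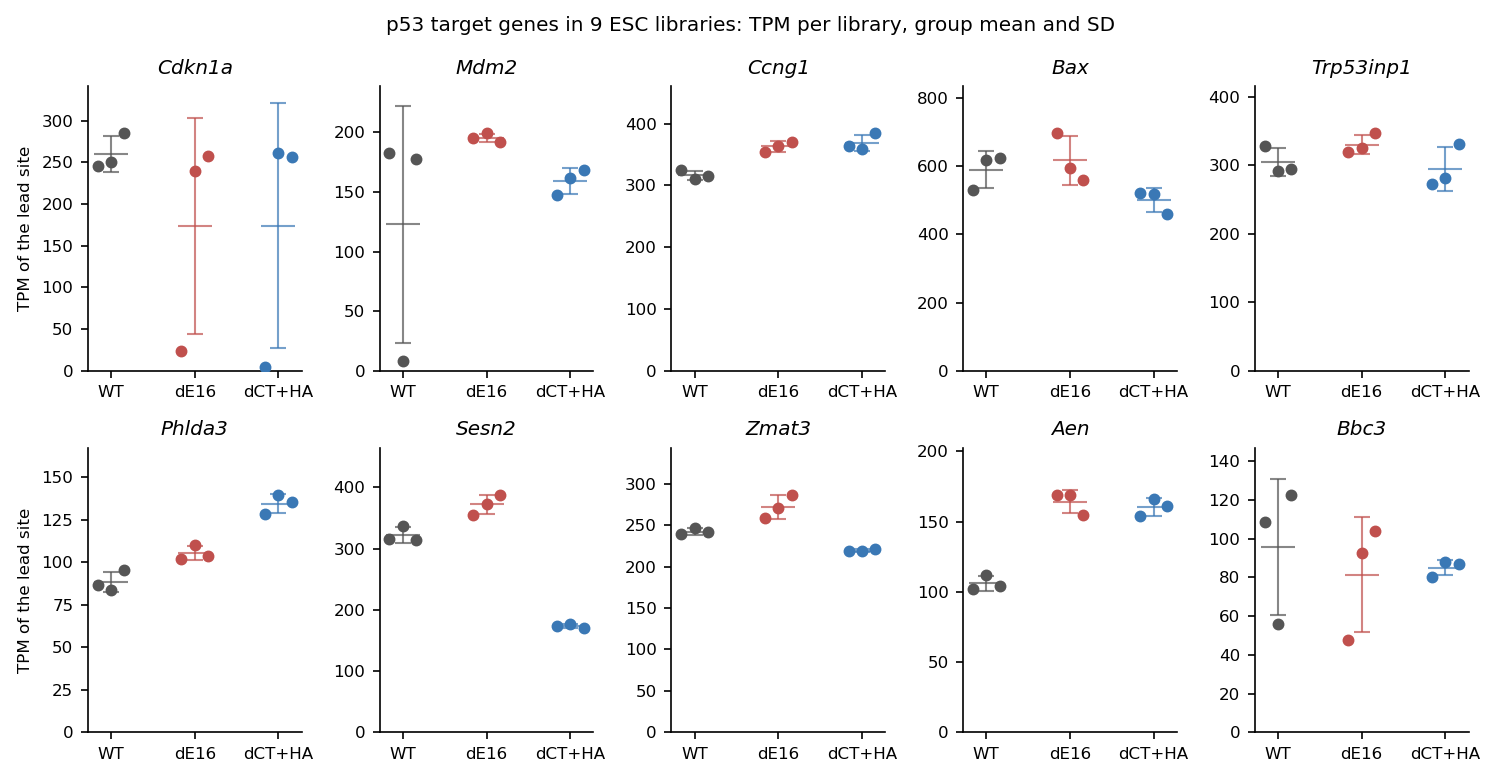
TPM of the lead site of each p53 target gene (vertical axis, starting at 0) in the 3 libraries of WT, DIDO3ΔE16 (dE16) and DIDO3ΔCT+HADIDO3 (dCT+HA), with points for libraries and bars for the group mean and SD. Sesn2 lies at 170 to 177 TPM in DIDO3ΔCT+HADIDO3, below all other libraries, while Cdkn1a and Mdm2 have wide bars that come from single low libraries.

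Sesn2, on chromosome 4 (mm10, 132490807 to 132493715, minus strand), encodes sestrin 2, a leucine sensor that restrains mTORC1 under stress and is induced by both p53 and ATF4. It measured 316, 337 and 314 TPM in WT 1, WT 2-3 and WT 4. In DIDO3ΔE16 it measured 356, 373 and 388 TPM, and in DIDO3ΔCT+HADIDO3 173, 177 and 170 TPM. The 3 groups did not overlap, and the DIDO3ΔCT+HADIDO3 libraries were the lowest. Relative to WT, Sesn2 fell by 1.0 on the log2 scale in DIDO3ΔCT+HADIDO3 (SE 0.05, 95% interval -1.11 to -0.88, limma adjusted p = 0.000208), that is, to 0.501 of its WT level. Within the C79M libraries, which include WT 2-3 only, the difference was -1.07 (adjusted p = 0.0068). In DIDO3ΔE16 the difference from WT was 0.14 (95% interval 0.03 to 0.26, adjusted p = 0.0612). Compared directly, Sesn2 was 2.17-fold higher in DIDO3ΔE16 than in DIDO3ΔCT+HADIDO3, a log2 difference of 1.12 (SE 0.04, adjusted p = 4.95e-05). The nearest annotated transcript end of GENCODE lies 775 bases downstream of the end used for this site, inside the added stretch.

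Of Atf4 itself and 5 other genes of the ATF4 stress response, 2 of the 6 were called lower and 0 higher in each comparison with WT (4.94% and 7.24% of all sites were called lower), with a median log2 fold change of -0.33 in DIDO3ΔE16 and -0.57 in DIDO3ΔCT+HADIDO3. Trib3, a pseudokinase induced by ATF4, fell by 0.86 on the log2 scale in DIDO3ΔE16 (adjusted p = 0.00213) and by 1.19 in DIDO3ΔCT+HADIDO3 (adjusted p = 0.000218). Chac1, a glutathione-degrading enzyme, fell by 0.72 (adjusted p = 0.0076) and by 1.46 (adjusted p = 0.000286). Asns, asparagine synthetase, was chosen from this list after its values were seen. It measured 117 to 128 TPM in WT, 165 to 168 TPM in DIDO3ΔE16 and 89.8 to 94.8 TPM in DIDO3ΔCT+HADIDO3. Its log2 difference from WT was 0.38 (adjusted p = 0.00311) and -0.51 (adjusted p = 0.00223), under the fold that a call requires, and it was called higher in DIDO3ΔE16 in the direct comparison (0.87, adjusted p = 0.000102). The groups of Asns had the same order as those of Sesn2, whereas Trib3, Chac1 and Atf3 were highest in WT. This order was not particular to an ATF4 gene. In the wider list of p53 targets below, Pmaip1 and Trp73 had it too, while Eda2r and Dcxr had the reverse order. Pmaip1, named after its values were seen, measured 308 to 335 TPM in WT, 425 to 436 TPM in DIDO3ΔE16 and 204 to 222 TPM in DIDO3ΔCT+HADIDO3. Atf3 measured 9.07 to 9.65 TPM in WT, 6.10 to 7.42 TPM in DIDO3ΔE16 and 5.64 to 7.25 TPM in DIDO3ΔCT+HADIDO3. The groups of Atf4 overlapped, and Ddit3 was at 3.57 TPM in WT 2-3 against 432.1 and 448.5 TPM in WT 1 and WT 4. The part of ATF4 in the Sesn2 values was not tested.

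Aen, Phlda3, Zmat3 and Ccng1 differed from WT in at least 1 line with an adjusted p under 0.05 but under the fold that a call requires. Aen (chromosome 7, 78907417 to 78910833, plus strand) encodes a nuclease that degrades DNA and RNA in dying cells. It measured 102, 112 and 104 TPM in WT, 169, 169 and 155 TPM in DIDO3ΔE16, and 154, 166 and 161 TPM in DIDO3ΔCT+HADIDO3. Every mutant library of either line was above every WT library, and the mutant lines overlapped each other. The log2 difference from WT was 0.56 in DIDO3ΔE16 (SE 0.06, adjusted p = 0.00252) and 0.49 in DIDO3ΔCT+HADIDO3 (SE 0.05, adjusted p = 0.00196). Within the C79M libraries it was 0.47 (adjusted p = 0.037) and 0.41 (adjusted p = 0.030). The difference between the mutant lines was 0.05 (95% interval -0.08 to 0.19, adjusted p = 0.461).

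Phlda3 (chromosome 1, 135766827 to 135771134, plus strand), which encodes a PH domain protein that competes with the kinase Akt for membrane lipids, measured 86.5, 83.5 and 95.2 TPM in WT. It measured 102, 110 and 104 TPM in DIDO3ΔE16 and 129, 140 and 136 TPM in DIDO3ΔCT+HADIDO3. The groups did not overlap, with WT lowest and DIDO3ΔCT+HADIDO3 highest. The log2 difference from WT was 0.19 in DIDO3ΔE16 (adjusted p = 0.0869) and 0.50 in DIDO3ΔCT+HADIDO3 (SE 0.07, adjusted p = 0.00385), and that of DIDO3ΔE16 from DIDO3ΔCT+HADIDO3 was -0.33 (95% interval -0.44 to -0.23, adjusted p = 0.00197). Zmat3 (chromosome 3, 32332794 to 32341483, minus strand), a zinc finger protein that binds RNA and regulates splicing, was highest in DIDO3ΔE16 and lowest in DIDO3ΔCT+HADIDO3. It measured 239, 246 and 241 TPM in WT, 258, 271 and 286 TPM in DIDO3ΔE16, and 218, 219 and 221 TPM in DIDO3ΔCT+HADIDO3, again without overlap. Its log2 difference from WT was 0.10 (adjusted p = 0.131) and -0.25 (SE 0.03, adjusted p = 0.00346), and the direct difference between the lines was 0.33 (95% interval 0.23 to 0.43, adjusted p = 0.00176).

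Ccng1 (chromosome 11, 40746552 to 40750867, minus strand), the cyclin G1 gene, whose product brings the phosphatase PP2A to Mdm2, measured 324, 310 and 315 TPM in WT. It measured 354, 364 and 371 TPM in DIDO3ΔE16 and 364, 360 and 384 TPM in DIDO3ΔCT+HADIDO3. All 6 mutant libraries were above the WT libraries, by a log2 difference of 0.13 (SE 0.03, adjusted p = 0.0135) and 0.12 (SE 0.03, adjusted p = 0.0318). In DIDO3ΔE16 the limma adjusted p was 0.109 without trend and robust estimation and 0.226 with the replicate number as a block. Within the C79M libraries the difference of DIDO3ΔE16 from WT was 0.15. With the identifier family as a covariate it was 0.16 (limma adjusted p = 0.0519), so it did not pass 0.05. The lines differed from each other by -0.01 (95% interval -0.08 to 0.07, adjusted p = 0.885).

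Trp53inp1 (chromosome 4, plus strand) encodes a cofactor of p53 that also takes part in autophagy, and 3 of its sites were listed. The lead site, a UTR that starts at 11169960 and whose site ends at 11176377, measured 328, 291 and 295 TPM in WT, 319, 325 and 346 TPM in DIDO3ΔE16, and 272, 281 and 331 TPM in DIDO3ΔCT+HADIDO3. The groups overlapped, and the log2 difference from WT was 0.05 (95% interval -0.07 to 0.18) and -0.16 (95% interval -0.35 to 0.04). The site of the proximal end (11165479 to 11168400) measured 16.1 to 19.3 TPM in WT, 16.1 to 19.2 TPM in DIDO3ΔE16 and 16.3 to 22.4 TPM in DIDO3ΔCT+HADIDO3. A longer distal site (11167919 to 11176377) measured 20.9 to 21.1, 23.5 to 24.1 and 20.3 to 23.5 TPM. The longer distal site shares bases with both others on the same strand, so the division of TPM among the 3 is an estimate. The proximal end took 5.09% ± 0.181 of the TPM of Trp53inp1 in WT (SD, n = 3), 4.74% ± 0.413 in DIDO3ΔE16 and 5.73% ± 0.509 in DIDO3ΔCT+HADIDO3, and the lead site took 88.8%, 88.9% and 87.7%. The shares of the proximal end overlapped between WT and each mutant line, and they are given as a description.

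Bax and Bbc3 act in mitochondrial cell death: Bax forms pores in the outer membrane, and Bbc3, also called Puma, frees Bax from its inhibitors. The site of Bax (chromosome 7, 45459695 to 45461861, minus strand) had the highest TPM of the members. It measured 529, 619 and 622 TPM in WT, 695, 595 and 559 TPM in DIDO3ΔE16, and 522, 518 and 459 TPM in DIDO3ΔCT+HADIDO3. It holds 167 UTR bases, and the added downstream bases made up 92.3% of its length, so its values describe mostly this flank. The DIDO3ΔCT+HADIDO3 libraries were below all WT libraries, the nearest pair being 522 and 529 TPM, and below all DIDO3ΔE16 libraries. The log2 difference was -0.34 from WT (SE 0.10, adjusted p = 0.053) and 0.32 between DIDO3ΔE16 and DIDO3ΔCT+HADIDO3 (adjusted p = 0.0658), and neither passed the threshold. Bbc3 (chromosome 7, 16317235 to 16320334, plus strand) measured 109, 56.0 and 123 TPM in WT, 47.7, 92.8 and 104 TPM in DIDO3ΔE16, and 80.5, 88.2 and 86.7 TPM in DIDO3ΔCT+HADIDO3. The spread within WT (2.19-fold) and within DIDO3ΔE16 (2.18-fold) was larger than any difference between groups, with log2 differences of -0.30 (95% interval -1.45 to 0.86) and -0.19 (95% interval -1.03 to 0.64) from WT. Sae1, a gene on the opposite strand, shares 2099 bases with this site, and no strand option was set when the features were quantified, as far as the file headers show. The overlapping Sae1 site was itself at 4.10 to 6.06 TPM in WT, 8.48 to 19.4 TPM in DIDO3ΔE16 and 1.34 to 1.55 TPM in DIDO3ΔCT+HADIDO3, and its part in the Bbc3 values was not tested.

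**Figure D2:**
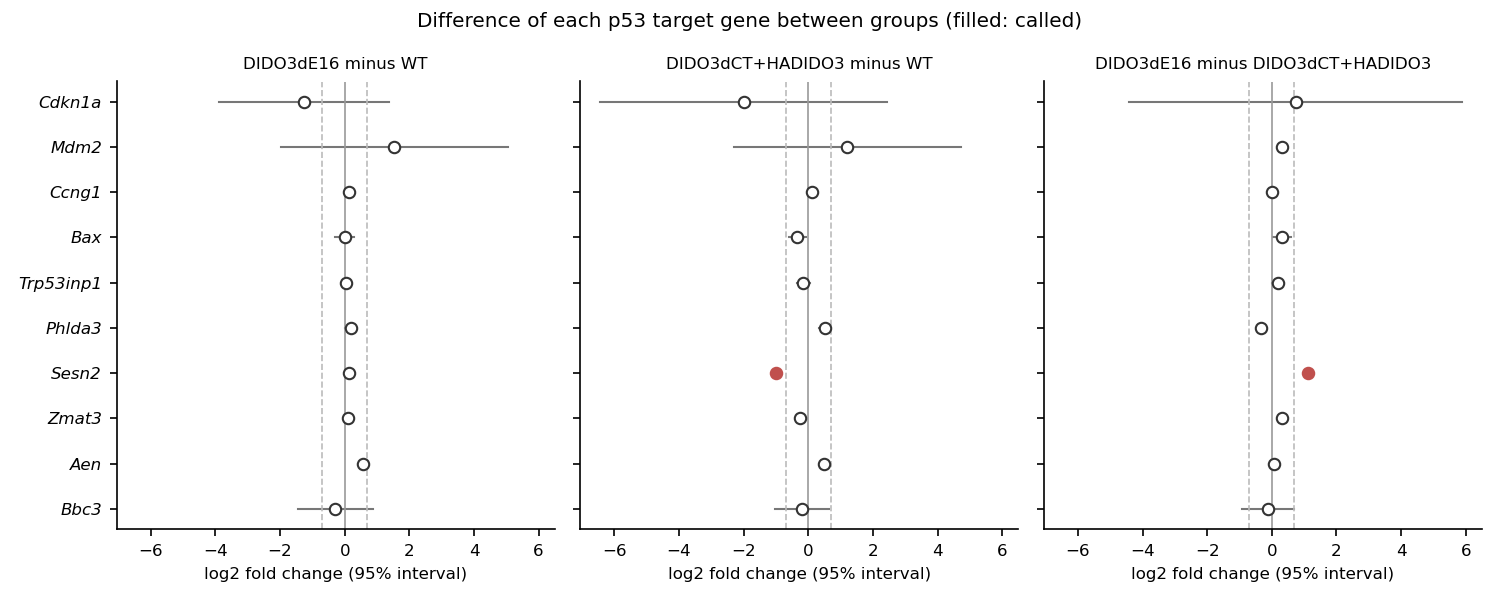
Log2 fold change of the lead site of each p53 target gene (horizontal axis) with its 95% interval in 3 comparisons; dashed lines mark the fold that a call requires, and filled points are called. Sesn2 is filled at -1.0 and 1.12, and the intervals of Cdkn1a and Mdm2 against WT span both directions.

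The targets most often used as readouts of p53, Cdkn1a and Mdm2, had far wider intervals than the other members in the comparisons with WT. Cdkn1a (chromosome 17, 29099394 to 29102722, plus strand) encodes p21, the inhibitor of cyclin-dependent kinases that executes the p53 arrest. It measured 245, 250 and 285 TPM in WT, 24.2, 240 and 258 TPM in DIDO3ΔE16, and 4.96, 261 and 256 TPM in DIDO3ΔCT+HADIDO3. In each mutant line 2 libraries lay within or next to the WT range and replicate 1 lay far below it. The log2 difference from WT was -1.25 (95% interval -3.88 to 1.38, adjusted p = 0.407) and -2.0 (95% interval -6.44 to 2.44, adjusted p = 0.418). Without replicate 1 of the mutant it was -0.13 (adjusted p = 0.36) and -0.12 (adjusted p = 0.38). In the direct comparison it was 0.73 (95% interval -4.42 to 5.89, adjusted p = 0.788), and -0.04 without replicate 1 of both lines.

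Mdm2 (chromosome 10, 117686875 to 117690209, minus strand) showed the same kind of gap in a WT library. It measured 183, 8.11 and 178 TPM in WT 1, WT 2-3 and WT 4, 195, 199 and 192 TPM in DIDO3ΔE16, and 147, 162 and 169 TPM in DIDO3ΔCT+HADIDO3. WT 2-3 was 21.9-fold below the median of its group. The log2 difference from WT was 1.54 (95% interval -1.97 to 5.04, adjusted p = 0.44) in DIDO3ΔE16 and 1.2 (95% interval -2.31 to 4.71, adjusted p = 0.537) in DIDO3ΔCT+HADIDO3. Without WT 2-3 it was 0.05 (adjusted p = 0.37) and -0.29 (adjusted p = 0.026), which turned the direction in DIDO3ΔCT+HADIDO3. With WT 2-3 as the only WT library, that is, within the C79M libraries, it was 4.50 (adjusted p = 0.00025) and 4.17 (adjusted p = 0.0013) and was called in both. In the direct comparison, which holds no WT library, Mdm2 was higher in DIDO3ΔE16 than in DIDO3ΔCT+HADIDO3 by 0.32 (95% interval 0.20 to 0.43, adjusted p = 0.00327), under the fold that a call requires. Cpm, on the opposite strand, shares 2478 bases with the Mdm2 site and measured 2.85 to 7.83 TPM over the 9 libraries.

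The low values of Cdkn1a and Mdm2 fell on sites that the annotation lists several times. The Cdkn1a site is listed as 3 identical entries and the Mdm2 site as 4. In WT, all of the Cdkn1a TPM stood on the entry uc012aom.2 (245 to 285 TPM) and 0 on the others. In the low libraries it was spread nearly evenly, at 7.71, 7.99 and 8.45 TPM in DIDO3ΔE16 replicate 1 and at 1.59, 1.60 and 1.76 TPM in DIDO3ΔCT+HADIDO3 replicate 1. For Mdm2, the 4 entries of WT 2-3 held 1.88 to 2.42 TPM each, while in DIDO3ΔE16 replicate 1 the entry uc033fss.1 held 195 TPM and the others 0 to 0.792 TPM. An even split also occurred in libraries at the usual level, such as DIDO3ΔE16 replicate 2.

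**Figure D3:**
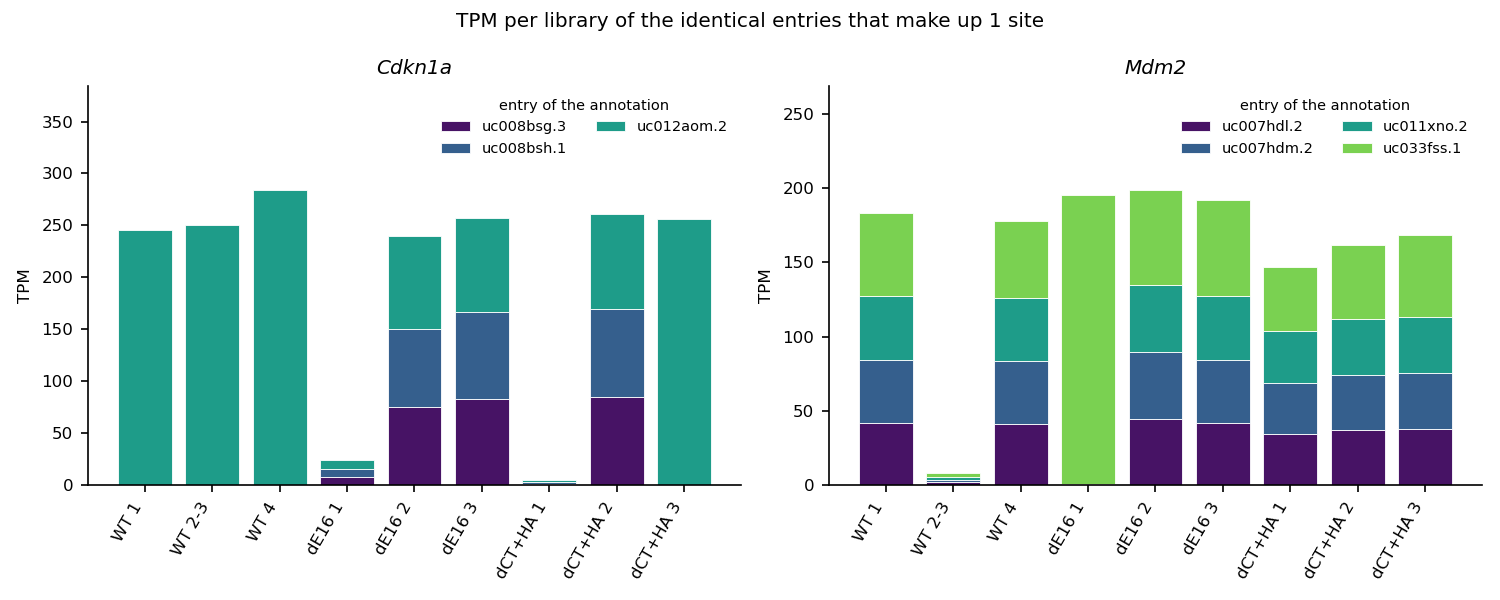
TPM of each identical entry of the Cdkn1a site (3 entries) and the Mdm2 site (4 entries) in the 9 libraries, stacked so that the bar is the TPM of the site. Bars are short in replicate 1 of both mutant lines for Cdkn1a (24.2 and 4.96 TPM) and in WT 2-3 for Mdm2 (8.11 TPM).

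The same pattern was counted over the whole series, with a criterion chosen after these values were seen: among sites whose mean reached 10 TPM, those in which some library was below the median of its group divided by 4. Of sites listed more than once that share no base with another site on their strand, 1062 of 3749 (28.3%) had such a library. Of sites listed once that share no base, 14 of 5537 (0.253%) had one. Of sites that do share bases with another site on their strand, 765 of 2373 (32.2%) had one. Per library, 3.44% to 4.83% of the sites listed more than once were low. Bax and Aen, also listed more than once, had no low library. The genes whose pattern over the 9 libraries was most like that of Cdkn1a, by Pearson correlation of log2 values among 7153 candidate lead sites, were Klhl12 (r = 0.985), Odf2 (r = 0.981) and Abca3 (r = 0.977), which share with it the low replicate 1 of both mutant lines. Those most like Mdm2 were Ankrd11 (r = 0.999), Prdx6 (r = 0.998) and Slc38a7 (r = 0.997), all low in WT 2-3. Since these genes were picked by this likeness, the shared low libraries follow from the choice. Each of these 6 sites is listed 2 or 3 times. Among the sites counted above that share no base, 3749 were listed more than once and 5537 once. These correlations describe 9 libraries, and within each library all sites share its depth and its estimate. The part of the repeated listing in the low values was not tested.

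Upstream of the targets, the lead site of the p53 gene Trp53 had a high and uneven TPM. It spans 69589820 to 69591821 on chromosome 11, and nearly all of its length is the stretch added downstream of the UTR. Its values therefore describe mostly this added stretch. The Trp53 sites that end at 69593873 measured at most 13.9 TPM. The lead site of Trp53 measured 502, 172 and 572 TPM in WT, 598, 190 and 605 TPM in DIDO3ΔE16, and 560, 529 and 495 TPM in DIDO3ΔCT+HADIDO3. WT 2-3 and DIDO3ΔE16 replicate 2 were the lowest, though not below the median of their group divided by 4. The lead site shares bases with the other Trp53 sites on its strand. The overlapping site at 69591309 to 69593873 measured 6.51 TPM in WT 2-3 and 13.9 TPM in DIDO3ΔE16 replicate 2, against 0.017 to 0.028 TPM in the other libraries. The part of this overlap in the uneven values was not tested. The log2 difference of the lead site from WT was 0.10 (limma adjusted p = 0.936) and 0.42 (adjusted p = 0.561). Of 18 regulators of p53, 17 were tested. In DIDO3ΔE16, 1 was called higher and 0 lower (10.2% and 4.94% of all sites), with a median log2 fold change of -0.06, and in DIDO3ΔCT+HADIDO3, 1 was called higher and 1 lower (10.1% and 7.24% of all sites), with a median of -0.17. Cdkn2a, which encodes the Mdm2 inhibitor Arf and the kinase inhibitor p16, rose by 1.05 on the log2 scale in DIDO3ΔE16 (adjusted p = 0.0044) and by 0.95 in DIDO3ΔCT+HADIDO3 (adjusted p = 0.0165), from 1.80 to 2.38 TPM in WT to 4.51 to 4.62 TPM and 3.45 to 4.98 TPM. Atm, the kinase that signals DNA breaks to p53, fell by 0.77 in DIDO3ΔCT+HADIDO3 (adjusted p = 0.000539), from 68.2 to 76.6 TPM in WT to 44.8 to 48.6 TPM, and was at 72.4 to 73.7 TPM in DIDO3ΔE16. Cop1, a ubiquitin ligase of p53, was called in the direct comparison, at 18.7 to 20.3 TPM in DIDO3ΔE16 and 31.1 to 35.0 TPM in DIDO3ΔCT+HADIDO3 (log2 difference -0.71, adjusted p = 0.000506).

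A wider list of 37 other p53 targets, of which 35 were tested, moved in both directions. In DIDO3ΔE16, 1 was called higher and 6 lower (10.2% and 4.94% of all sites), with a median log2 fold change of -0.02. In DIDO3ΔCT+HADIDO3, 3 were called higher and 4 lower (10.1% and 7.24% of all sites), with a median of 0.01. The direct comparison called 8 higher and 7 lower (13.9% and 13.4% of all sites). A low library by the criterion above was found in 6 of the 36 genes with a site. The criterion uses the group median, so it cannot flag a group in which most libraries are low. Ei24, called higher in the direct comparison and named after its values were seen, was not flagged. It measured 273, 10.3 and 13.9 TPM in WT, 255 to 277 TPM in DIDO3ΔE16 and 2.64 to 9.55 TPM in DIDO3ΔCT+HADIDO3.

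In DIDO3ΔE16, Trp73, a relative of p53, rose by 1.2 on the log2 scale (adjusted p = 0.000959), from 6.92 to 7.75 TPM in WT to 15.5 to 19.1 TPM. Eda2r, a receptor for ectodysplasin, fell by 1.25 (adjusted p = 0.000868) in this line and rose by 0.79 (adjusted p = 0.00402) in DIDO3ΔCT+HADIDO3. It measured 74.3 to 91.4 TPM in WT, 33.2 to 39.1 TPM in DIDO3ΔE16 and 132 to 169 TPM in DIDO3ΔCT+HADIDO3, and the lines differed by -2.06 (adjusted p = 9e-05). Dcxr, a carbonyl reductase, fell by 1.01 in DIDO3ΔE16 (adjusted p = 0.000524), and Dram1, a lysosomal protein of autophagy, fell by 0.99 in DIDO3ΔE16 (adjusted p = 0.00971) and by 2.80 in DIDO3ΔCT+HADIDO3 (adjusted p = 0.000695).

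In DIDO3ΔCT+HADIDO3, Gadd45a, which acts in growth arrest and DNA repair, fell by 1.42 (adjusted p = 0.000276), from 117 to 134 TPM in WT to 48.1 to 53.1 TPM. Tigar, which redirects glucose to the pentose phosphate pathway, fell by 1.28 (adjusted p = 0.0208), although WT 1 (229 TPM) was well above WT 2-3 and WT 4 (123 and 115 TPM). Wrap53, an antisense neighbour of Trp53 that encodes a telomerase component, rose by 1.03 (adjusted p = 0.035), and Gdf15, a stress cytokine, rose by 0.89 (adjusted p = 0.00875). Both are low in ESC, at 1.61 to 3.63 TPM in WT.

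Of 12 genes that p21 holds down through the cell cycle, 10 were tested and 0 were called in either mutant line by limma, against 15.1% and 17.3% of all sites. At an unadjusted p under 0.05 there were 5 and 6, against 43.4% and 47.3% of all sites, and the medians were -0.03 and -0.03. The gene with the largest difference in DIDO3ΔE16 was Birc5, an inhibitor of apoptosis, at 136 to 140 TPM in WT and 138, 39.3 and 37.2 TPM in DIDO3ΔE16 (log2 difference -1.29, adjusted p = 0.155). In DIDO3ΔCT+HADIDO3 it was the phosphatase gene Cdc25c (1.37, adjusted p = 0.468), whose WT 4 value of 0.870 TPM stood against 19.1 and 19.9 TPM in the other WT libraries. Of 12 genes of the Bcl-2 family and caspases, 10 were tested. In DIDO3ΔE16, 0 were called by limma, against 15.1% of all sites (6 at an unadjusted p under 0.05, against 43.4% of all sites). The largest difference was that of Bcl2l1, the gene of the survival protein Bcl-xL (0.98, adjusted p = 0.416), with WT 2-3 at 17.3 TPM and the other libraries of this comparison at 113 to 129 TPM. In DIDO3ΔCT+HADIDO3, Bik, a BH3-only protein, rose by 1.01 (adjusted p = 0.041), while Hrk, another BH3-only protein, fell by 0.79 (adjusted p = 0.0012) and the survival gene Bcl2 fell by 0.78 (adjusted p = 0.0242). Bcl2 was at 0.766 to 1.79 TPM in all libraries.

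**Figure D4:**
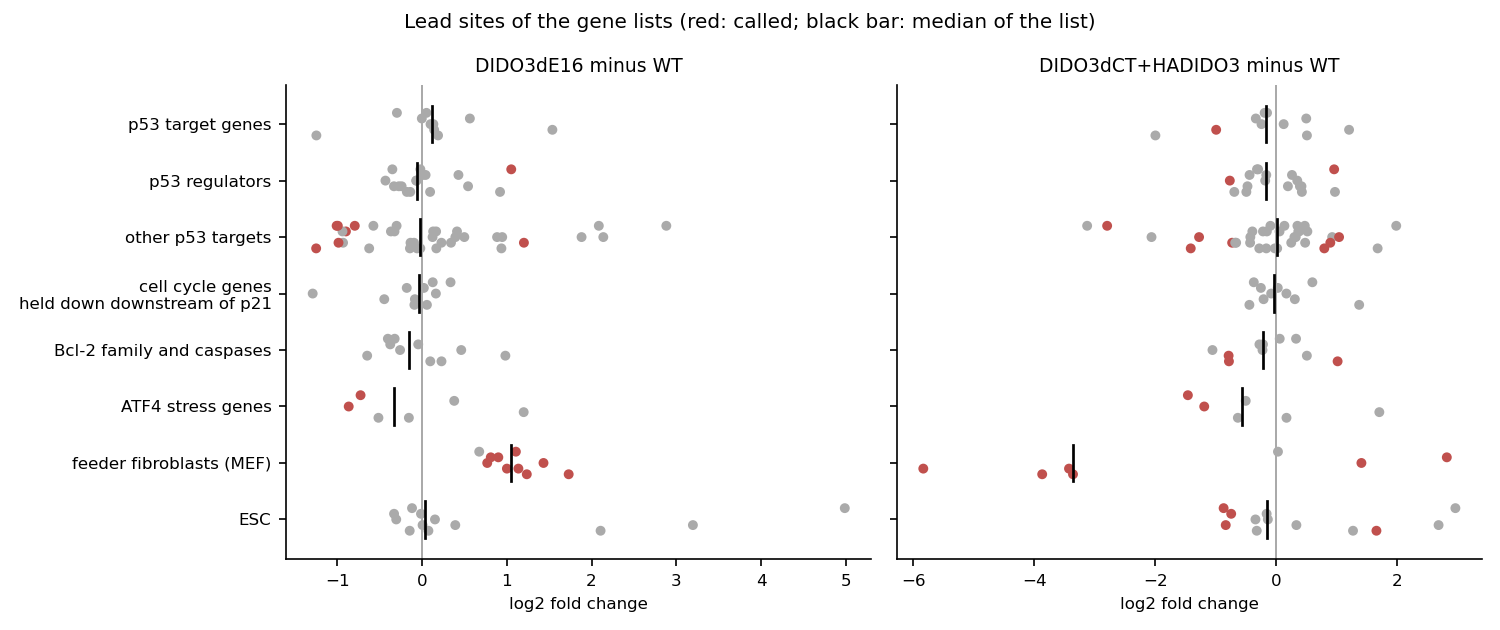
Log2 fold change of the lead sites of each gene list (horizontal axis) in both comparisons with WT, on axes of different range; red points are called, grey points are not, and black bars are the medians. The median of the p53 target genes is 0.12 and -0.18, and that of the fibroblast markers is 1.06 and -3.36.

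The fibroblast markers moved with the groups. Of 12 markers, 10 were tested in DIDO3ΔE16, of which 9 were called higher and 0 lower (10.2% and 4.94% of all sites), with a median log2 fold change of 1.06. In DIDO3ΔCT+HADIDO3, 7 were tested, of which 2 were called higher and 4 lower (10.1% and 7.24% of all sites), and 7 of the 12 were under 1 TPM in all 3 libraries. Dcn and Lum were near 0 in every group. In DIDO3ΔE16, Pdgfrb (1.73, adjusted p = 0.000269), Col3a1 (1.43, adjusted p = 0.00836) and Col1a1 (1.24, adjusted p = 0.00173) rose on the log2 scale. In DIDO3ΔCT+HADIDO3, Pdgfrb (2.82, adjusted p = 5.34e-05) and Thy1 (1.40, adjusted p = 0.000133) rose, while Col1a2 (-5.84, adjusted p = 5.02e-05), Fbln2 (-3.87, adjusted p = 0.000281) and S100a4 (-3.43, adjusted p = 0.000773) fell. The part of the RNA of fibroblasts in the values of Sesn2, Aen, Phlda3, Zmat3 and Cdkn2a was not tested.

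Read by overlap rather than by call, 6 members were higher in DIDO3ΔE16 than in every WT library (Mdm2, Ccng1, Phlda3, Sesn2, Zmat3 and Aen) and 0 were lower, where 27.6% and 21.7% of all sites did the same (49.4% in either direction). In DIDO3ΔCT+HADIDO3, Ccng1, Phlda3 and Aen were higher than in every WT library and Bax, Sesn2 and Zmat3 lower, that is, 3 and 3 of 10, against 32% and 21.4% of all sites (53.5% in either direction). In the direct comparison, Mdm2, Bax, Sesn2 and Zmat3 were higher in every DIDO3ΔE16 library than in any DIDO3ΔCT+HADIDO3 library and Phlda3 lower, that is, 4 and 1 of 10, against 29.7% and 31.9% of all sites (61.6% in either direction). Sites with an adjusted p under 0.05 at any fold made up 33.2% and 38.4% of those tested in the comparisons with WT, and 2 and 5 of the 10 members were among them. In the direct comparison they made up 49.2%, with 4 of the 10 members. Without scaling, the members with a limma adjusted p under 0.05 were 5 of 10 in DIDO3ΔE16. These were Phlda3 (adjusted p = 0.0324), Sesn2 (adjusted p = 0.0254) and Zmat3 (adjusted p = 0.0432) in addition to Ccng1 and Aen. They were also 5 of 10 in DIDO3ΔCT+HADIDO3 and 4 of 10 in the direct comparison. The share of all sites at this threshold was not counted without scaling, so these counts have no background beside them.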

How the data were processed

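The data were stranded RNA-seq of ESC, with 3 libraries per group. BWA-MEM (0.7.15) had been used for alignment to mm10, Picard for removal of duplicates and StringTie (1.3.3), limited to the listed features, for quantification. The deposited TPM values and mean coverage (signal) per feature were made by the authors in this way, without scaling between libraries. The authors tested them with edgeR. Since the files hold TPM, limma (3.58.1, R 4.3.3) on log2 values took its place here. Read counts were not used here.

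Features were named by GENCODE (mm10); 42255 of 43031 were given a symbol, and TPM was summed over identical coordinates. A site was tested where no library of the comparison had a TPM of 0. Scaling factors came from trimmed means of log2 ratios, with 30% removed on either side. After addition of 0.1, moderated 2-sided tests with trend and robust estimation were adjusted by Benjamini-Hochberg. The procedure was tested on simulated data. Summaries and figures used Python (3.11.15), numpy, pandas, scipy and matplotlib; coverage limits the precision of each value.

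The rule for the members uses names alone, but members and lists were chosen with earlier results of these data known. Named genes are the members, Trp53 and called regulators, the up to 3 called genes with the largest rise and fall of each other list in each comparison with WT (the largest difference where none was called), the 3 genes most like Cdkn1a and Mdm2, overlapping genes and Dido1. Alternatives were other pseudocounts, filters, scalings, moderation, thresholds and summing, all libraries in 1 fit, the identifier family, the replicate number as a block, and leaving out libraries. The criterion for low libraries and 3 of the alternatives were chosen after seeing the data. Sequences came from RefSeq promoters (GRCm38.p6) and GENCODE M21.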

Additional observations from a re-analysis of the deposited data

Results flagged for a closer look

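Sesn2 differed between the mutant lines by the direct test of the difference: the log2 difference of DIDO3ΔE16 from DIDO3ΔCT+HADIDO3 was 1.12 (limma adjusted p = 4.95e-05), higher in 3 of 3 DIDO3ΔE16 libraries than in any DIDO3ΔCT+HADIDO3 library. The other 9 members were not called in this comparison, in which 27.4% of all sites were.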

How the results depend on the processing

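Sesn2 was called in DIDO3ΔCT+HADIDO3 against WT under all alternatives but the replicate block and in the direct comparison under all. The replicate numbers did not pair the libraries: deviations of same-numbered libraries from their group means had correlations of -0.137 to 0.0332, although in the direct comparison each library correlated best with its own number. With the replicate number as a block, 0 sites were called by limma in both comparisons with WT (6197 and 6915 at an unadjusted p under 0.05, and 3191 and 3612 called without the block). There, 0 members were called in DIDO3ΔCT+HADIDO3 and Sesn2 was at -0.98 (adjusted p = 0.079). In this fit WT 2-3 was given number 2, and WT 4 and replicate 3 of the mutant had no partner. Only the pairs numbered 1 and 2 then inform the difference from WT, and little is left to estimate the spread. In the direct comparison, where every number has a partner, 5183 sites were called. With the identifier family as a covariate, 1 member was called in DIDO3ΔE16 against WT, where 2385 of 21063 sites were called. In DIDO3ΔCT+HADIDO3 against WT, 2 members were called, where 3070 of 20879 sites were. Mdm2 was at 4.51 and 4.17 in these fits. Within the C79M libraries, where the lone WT library is assumed to vary like the others, Mdm2 was at 4.50 and 4.17. These Mdm2 values and its calls rest on WT 2-3, without which Mdm2 was at 0.05 and -0.29. The sites called in DIDO3ΔE16 against WT were 2112 at an adjusted p under 0.01. On sites listed once that share no base, 1888, 2253 and 3250 sites were called, of 9507, 9394 and 9571 tested. This alternative was chosen after seeing the data, like the 2 that leave out the low libraries together. Quantile normalization moved the share of called sites that were higher in DIDO3ΔE16 from 67.4% to 55%.

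Of 768 member values under alternatives, 37 changed sign, 0 of them called. For Bax in DIDO3ΔE16 these were 0.0616 (no scaling), 0.0732 (quantile), 0.00182 (all libraries in 1 fit), 0.0019 (features not summed), 0.12 (replicate block) and -0.0987 to 0.0702 (leaving out 1 library). For the proximal Trp53inp1 site in DIDO3ΔE16 they were 0.00932 (no scaling), 0.0593 and 0.0510 (covariate and C79M) and -0.12 to 0.00786 (leaving out 1 library), and in DIDO3ΔCT+HADIDO3 -0.0755 (replicate block), -0.0690 to 0.14 (leaving out 1 library) and -0.0389 (without WT 2-3 and replicate 1). For the longer Trp53inp1 site in DIDO3ΔCT+HADIDO3 they were 0.0612 (no scaling) and -0.0772 to 0.0149. For Bbc3 they were 0.40 and 0.39 (covariate and C79M) and -0.65 to 0.0445 in DIDO3ΔE16, and 0.0332 (replicate block), 0.50 and 0.50 (covariate and C79M) and -0.54 to 0.0307 in DIDO3ΔCT+HADIDO3. For Mdm2 in DIDO3ΔCT+HADIDO3 they were -0.29 to 1.94, and -0.24 without WT 2-3 and replicate 1. In the direct comparison, Cdkn1a was at -1.15 to 1.85, and -0.0359 without replicate 1 of both; Ccng1 at 0.00947 (all libraries in 1 fit), -0.0308 to 0.00637, 0.00478 without replicate 1 of both and 0.0239 on sites listed once; and Bbc3 at -0.33 to 0.22, and 0.19 without replicate 1 of both. The cause of these changes was not tested. Leaving out 1 library gave 2724 to 2956, 3152 to 3492 and 5464 to 5555 called sites and the same member counts. Coverage limits the precision of low values, and a member that was not called may still have changed.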

Other observations

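Of 12 ESC identity genes, all tested, 0 were called in DIDO3ΔE16 by limma, against 15.1% of all sites. At an unadjusted p under 0.05 there were 4, against 43.4% of all sites, and the median log2 fold change was 0.04. The largest difference there was that of Esrrb, a nuclear receptor of naive ESC (4.99, adjusted p = 0.163), which measured 5.18 and 8.78 TPM in WT 1 and WT 4 but 1155 TPM in WT 2-3 and 1230 to 1271 TPM in DIDO3ΔE16. It measured 1903, 9.70 and 1684 TPM in DIDO3ΔCT+HADIDO3, and its site is listed 3 times. In DIDO3ΔCT+HADIDO3, 1 was called higher and 3 lower (10.1% and 7.24% of all sites). Zfp42, also called Rex1, rose by 1.65 on the log2 scale (adjusted p = 9.02e-05), from 74.2 to 75.7 TPM in WT to 245 to 268 TPM. Fgf4, a growth factor of pluripotent cells, fell by 0.87 (adjusted p = 0.000244), Lin28a, an inhibitor of let-7 processing, by 0.84 (adjusted p = 0.000267) and Klf4, a factor of naive pluripotency, by 0.75 (adjusted p = 0.00054).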
